A study of Glycine max with 8 samples.

Results

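Chromosome 13 of soybean (Glycine max) held 1163 of the 15872 regions at which chromatin immunoprecipitation followed by sequencing (ChIP-seq) gave a peak in both biological replicates. A member is a stretch of this chromosome in which peaks of the 2 replicate lists overlapped by at least 1 bp, joined over their full extent. The chromosome is compared with the 19 others, which together held 14629 such regions.

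The ChIP group was chromatin of mid-maturation embryos of the cultivar Williams 82, treated with an antibody raised to a peptide of the GLYMA.08G357600 protein. The input group was chromatin of the same stage and cultivar that received no antibody. Each group had 4 libraries, from 2 biological replicates sequenced on 2 lanes each, and each ChIP replicate had 1 peak list in which both lanes were joined. No separate plants or chromatin preparations are named for the replicates, so likeness between the lists may be partly technical.

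ChIP-seq reads enrichment at a place as the pile of sequenced fragments that the antibody collected, set against a background estimated from input chromatin. Maturing soybean embryos build up storage protein and oil, and proteins that sit on DNA at this stage are studied for their part in that programme. Soybean chromosomes typically carry most of their genes toward the arms and a large, repeat-rich, gene-poor stretch around the centromere, and chromosome 13 bears the nucleolus organizer. These are background facts; positions of genes, centromeres and repeats on the build of the lists were not used here, and no sequence is shown because no genome of that build was at hand.

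The replicate 1 list had 1556 peaks on chromosome 13 and the replicate 2 list had 1338. A partner in the other list was found for 1168 of the former (75.1%, Wilson 95% interval 72.9% to 77.2%), against 75.2% of all replicate 1 peaks. It was found for 1171 of the latter (87.5%, interval 85.6% to 89.2%), against 87.0% of all replicate 2 peaks. The shares on this chromosome were thus near the background in both lists. The 1163 regions had a median width of 453 bp (quartiles 369 and 567 bp, range 229 to 1613 bp) and covered 0.576 Mb, or 1.25% of the chromosome. The last base of any peak on it, 45873632, stood in for its length.

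Chromosome 13 had a smaller share of its regions near its ends, and a larger one in its interior, than any of the 19 others. The outer 20% at each end held 389 regions, or 33.4% (Wilson 95% interval 30.8% to 36.2%). On the other chromosomes this share averaged 71.4% ± 6.95 (SD, n = 19), and the lowest, 58.8%, was on chromosome 8. The middle 20% of chromosome 13 held 282 regions, or 24.2%, where the others had 4.52% ± 1.72 (SD, n = 19) and at most 7.57%, on chromosome 1. Both lists showed this separately. The outer share was 33.9% of replicate 1 peaks and 33.3% of replicate 2 peaks, while the lowest values elsewhere were 60.4% and 58.8%. Ranks and ranges over chromosomes are given as descriptions with no test, since chromosomes are not samples; intervals cover counting error only.

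The deficit was on one side. The share of regions before the middle, 26.3%, was nevertheless inside the range of the others (19.0% to 80.4%). With each chromosome cut into 10 equal segments, the first segment of chromosome 13 held 18 regions (1.55%) and the second held 1 (0.0860%), where the other chromosomes averaged 20.8% ± 5.33 and 15.2% ± 7.32 (SD, n = 19). In the last segment the chromosome had 176 regions (15.1%), within the range of the others (10.1% to 34.3%). In segments 5, 6 and 7 it held 145, 137 and 142 regions, between 11.8% and 12.5% of its total in each. No other chromosome exceeded 6.66% in any of these 3 segments. The terminal megabases differed in the same way: the first had 6 regions, against 17 to 47 elsewhere, and the last had 31, against 31.1 ± 9.90 (SD, n = 19).

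**Figure D1:**
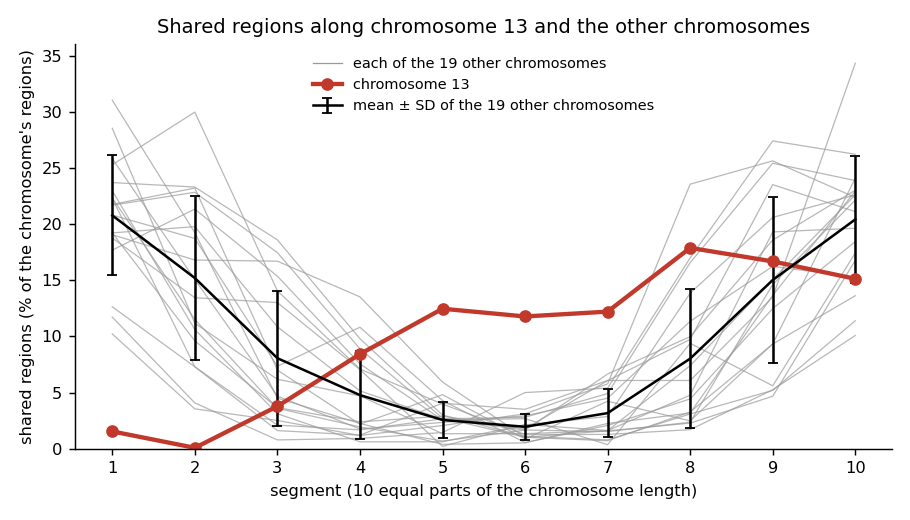
Share of each chromosome's shared regions (y axis, percent) in each of 10 equal segments of its length (x axis), for chromosome 13 (red), each of the 19 others (grey) and their mean with SD (black). Chromosome 13 starts at 1.55% in the first segment, lies above every other chromosome in segments 5 to 7, and is within the range of the others in the last.

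Along the sequence the chromosome fell into a short occupied start, a nearly empty stretch and a long occupied remainder. The start, up to position 3068643, held 18 regions, or 5.87 per Mb. The next 6.46 Mb, to position 9531152, held 1 shared region. This stretch runs over the 3 longest peak-free intervals of the chromosome, which lay from 3068644 to 5232423 (2.16 Mb), from 5232714 to 7358808 (2.13 Mb) and from 8020687 to 9531152 (1.51 Mb). From there to 20 Mb the chromosome held 164 regions (15.7 per Mb). From 20 Mb to the end it held 980, or 84.3% of the total, at 37.9 per Mb. The borders were set after the positions had been seen.

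The 18 regions of the start had median folds like those elsewhere on the chromosome. The medians were 7.21 in replicate 1 and 7.31 in replicate 2, against 6.93 and 7.21 beyond 20 Mb. Fold here is the authors' fold enrichment, the summit pileup over its local background, each with a pseudocount of 1. One of the 18 exceeded a fold of 20 in both lists. It lay from 2558536 to 2559421, with folds of 42.1 and 36.9 and summit pileups of 212 and 172 overlapping fragments, and was picked after its values were seen. The next highest mean of the 2 folds, also picked after its values were seen, was from 633913 to 634418 (16.8 and 26.5).

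The nearly empty stretch held 4 peaks in all, 3 of replicate 1 and 1 of replicate 2. Its shared region, from 7358809 to 7359519, had low folds of 1.45 and 1.82 although its pileups were 279 and 241 fragments. The local background there was 192 fragments in replicate 1 and 132 in replicate 2. Both other replicate 1 peaks had no partner, with folds of 3.06 (from 5232424 to 5232713) and 3.60 (from 8020423 to 8020686). No peak in this stretch therefore reached a fold of 4. A lack of peaks is no measurement of 0: which positions could be aligned is not known here.

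From 20 Mb to the end every full bin of 1 Mb was densely occupied. A bin of 1 Mb with at least 20 shared regions is called dense here, and 28 of the 45 full bins of chromosome 13 were dense (62.2%). The others had 36.5% ± 9.19 (SD, n = 19) and at most 55.3%, on chromosome 8. Between 10 and 20 Mb, bins held 7 to 28 regions and 3 were dense. From 20 Mb on, 25 dense bins followed one another without a gap, whereas the longest such row elsewhere was 18, on chromosome 8. In the lists taken singly the longest rows on chromosome 13 were 26 and 25 bins, against at most 18 elsewhere in each.

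Within dense bins the number of regions was not outside the range of other chromosomes. The median dense bin of chromosome 13 held 38 regions, where the others ranged from 25.5 to 42. The densest bin began at 34000001 and held 56 regions (77 replicate 1 and 61 replicate 2 peaks). It was followed by those at 37000001 (48 regions, 58 and 55 peaks) and 38000001 (47 regions, 65 and 52 peaks). No shared region fell in 5 bins, which began at 3000001, 4000001, 5000001, 6000001 and 8000001. Peak numbers per bin went together in the lists (Spearman rho 0.966 across 46 bins, the last being partial), a description over bins of the same libraries.

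**Figure D2:**
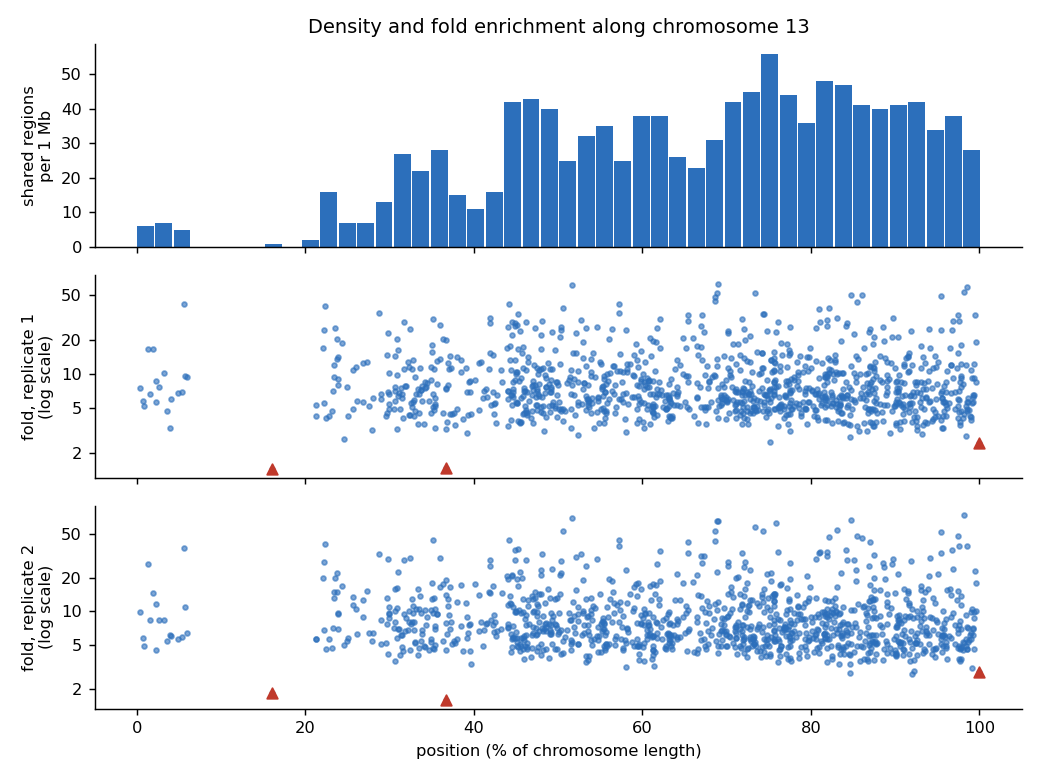
Shared regions per 1 Mb (top) and fold enrichment of each region in replicate 1 (middle) and replicate 2 (bottom, log scales) against position as a percentage of the length of chromosome 13. Red triangles mark 3 regions with a local background over 5 times the genome-wide level. The height of the cloud of folds changes less than its density.

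Density over the whole chromosome was 25.4 regions per Mb, above the 19 others (16.4 ± 3.07, SD, n = 19). Chromosomes 11 and 17 came closest, at 23.7 and 21.1 per Mb. They differed from chromosome 13 in layout: their outer shares were 62.1% and 66.0%, and their middle 20% held 5.24% and 3.77%. The window of 20% of the length with the fewest regions was centred at 58.1% of chromosome 11 and 59.4% of chromosome 17. On chromosome 13 that window was centred at 11.7% of the length, where all others lay between 28.6% and 67.1%. It held 16 regions, close to the 16.6 ± 6.65 (SD, n = 19) of the sparsest windows elsewhere.

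By the mean over the median distance between neighbouring summits, spacing was more even than on the other chromosomes. By the quartiles it was not the most even: those of chromosome 17, 6.42 and 40.9 kb, lay closer together. The median distance between neighbouring summits was 19.4 kb (quartiles 6.31 and 42.8 kb), inside the range of the others (16.8 to 29.3 kb). The mean distance, 39.3 kb, was the lowest of all 20. Pairs over 100 kb apart made up 6.20% of neighbouring pairs on chromosome 13 (72 pairs) and 12.3% over the others combined. The mean was 2.03 times the median, where the others had 2.83 ± 0.305 (SD, n = 19) and at least 2.26. In the single lists the ratio was 2.19 and 2.04, again the lowest of the 20 chromosomes in each list.

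Close neighbours were about as frequent as elsewhere. A neighbour within 2 kb was found for 194 regions, or 16.7% (Wilson 95% interval 14.6% to 18.9%), against 17.2% ± 1.98 (SD, n = 19). Pairs up to 1 kb apart made up 2.84% of neighbouring pairs and pairs from 1 to 2 kb made up 6.02%, against 3.16% and 6.08% over the others. A chain links summits less than 5 kb apart, and 44 chains of 3 or more regions held 150 regions, or 12.9%. That share was 11.6% ± 2.38 (SD, n = 19) on the other chromosomes.

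Chains of 5 regions or more numbered 0 to 5 on each of the 19 other chromosomes, with a mean of 1.84. The longest there had 7 regions, on chromosomes 5 and 9. On chromosome 13 a single chain reached 5 regions or more, with 7 regions in 12.1 kb from 34669749 to 34681807. The first 3 members had folds of 7.75, 8.56 and 13.9 in replicate 1 and of 7.69, 11.2 and 14.2 in replicate 2. The fourth, 3.84 kb further on, was 1223 bp wide, with folds of 8.56 and 6.75. The fifth had folds of 15.6 and 14.2 and the highest pileups, 97 and 83 fragments. The last pair had folds of 4.93 and 10.7 in replicate 1 and of 5.42 and 12.3 in replicate 2. Summits of the replicates were at most 36 bp apart in each of the 7. The same members were the strong ones in both lists, and no member was among the 100 highest-ranked regions of the chromosome.

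**Figure D3:**
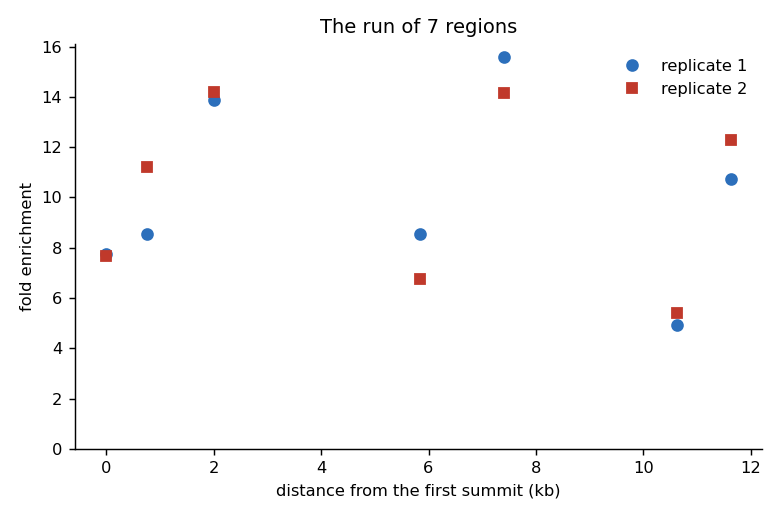
Fold enrichment (y axis) of the 7 chained regions against distance from the first summit in kb (x axis), for replicate 1 (blue circles) and replicate 2 (red squares). The third region and the fifth are the highest and the sixth is the lowest in both replicates.

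Median enrichment on chromosome 13 was inside the range of the other chromosomes. The median fold of its regions was 6.93 in replicate 1, with values from 1.45 to 62.8, and 7.28 in replicate 2, with values from 1.59 to 73.9. The others had medians of 6.96 ± 0.159 and 7.27 ± 0.211 (SD, n = 19). Summit pileups had medians of 40 and 31 fragments, with ranges of 17 to 357 and 13 to 304. Replicate 1 had the higher pileup at 1011 regions, and 35 regions were level. The median log2 ratio of replicate 1 to replicate 2 pileup was 0.33, against 0.32 ± 0.01 (SD, n = 19), so the chromosome shared the general offset between the lists. Among peaks with a −log10 q of at least 10, its median folds ranked 18 (replicate 1) and 8 (replicate 2) of the 20 chromosomes, counted from the highest, against 9 and 7 without that limit.

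A fold of at least 10 in both lists was reached by 277 regions of chromosome 13, or 23.8% (Wilson 95% interval 21.5% to 26.3%), and by 24.4% of all shared regions. For a fold of at least 20 the figures were 89 regions, 7.65% (interval 6.26% to 9.32%), and 7.14% of all shared regions. Both shares were near the background. The former ranked 14 of the 20 chromosomes, and 18 among peaks with a −log10 q of at least 10. The numbers themselves were the highest of any chromosome, with 260 and 81 regions on the next, chromosome 6.

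Enrichment varied less along the chromosome than density did. In steps of 5 Mb from 10 Mb on (the last running to the end), density went from 14 regions per Mb (10 to 15 Mb) to 43.2 (35 to 40 Mb). Over the same steps the median fold stayed between 6.52 and 7.41 in replicate 1 and between 6.90 and 8.48 in replicate 2. Both lists had their lowest median in the last step. The highest was at 20 to 25 Mb in replicate 1 and at 10 to 15 Mb in replicate 2. Outside these steps, the 3 regions from 5 to 10 Mb had medians of 4.23 and 5.60. The share of regions with a fold of at least 10 in both lists went from 20.4% (25 to 30 Mb) to 30.0% (10 to 15 Mb). Spearman's rho between position and mean fold rank over the 1163 regions was -0.08, and between distance to the nearest neighbour and that rank -0.04. These rho values describe regions of the same libraries and carry no p.

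**Figure D4:**
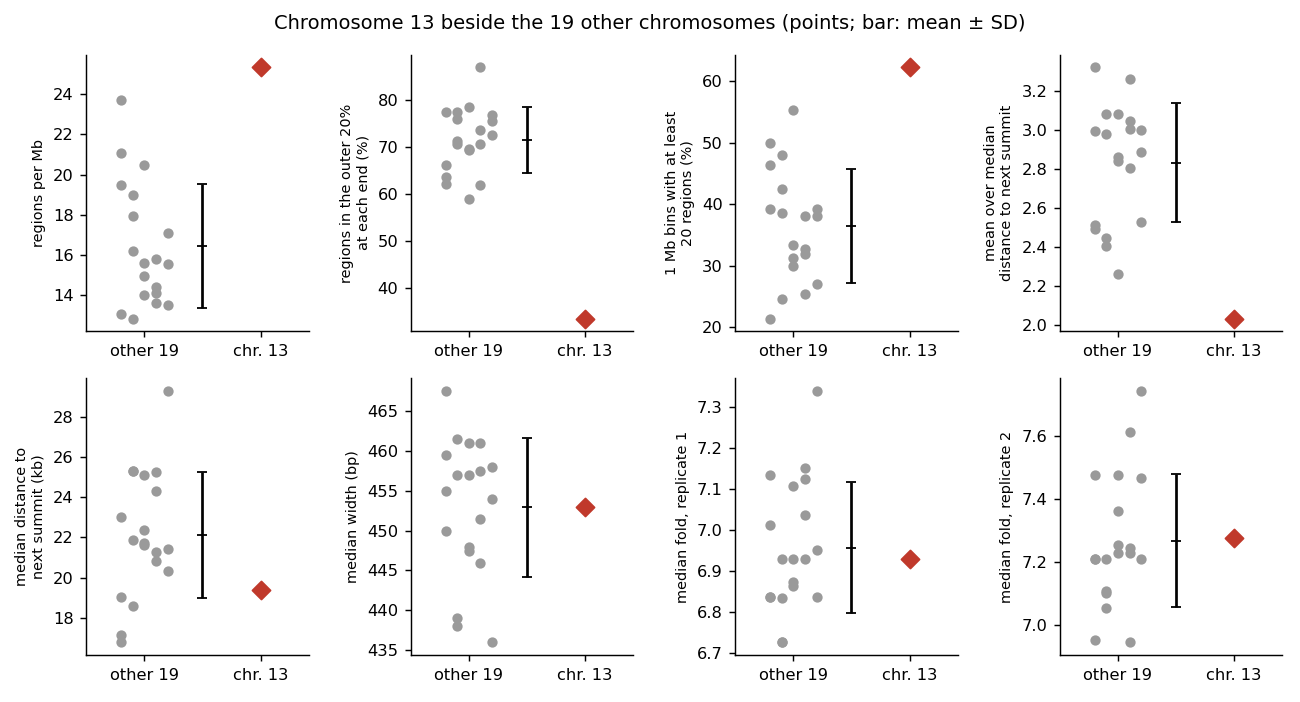
Values for the 19 other chromosomes (grey points, with mean and SD) and chromosome 13 (red diamond) for 4 measures of layout, in the top row, and 4 of spacing, width and fold enrichment, in the bottom row; axes do not start at 0. Chromosome 13 is outside the others in the top row and within them in the bottom row.

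The replicates ranked the regions alike. Across the 1163 regions rho was 0.807 for fold and 0.888 for pileup, and rho for fold on the other chromosomes was 0.811 ± 0.0153 (SD, n = 19). Summits of the replicates lay a median of 28 bp apart, and 1070 regions had them at most 100 bp apart. In the 10 regions with the highest mean percentile rank of fold, the summits differed by 2 to 32 bp. Over all 1163 regions the quartiles of this distance were 12 and 52.5 bp. Close summits were not limited to strong regions, as the 3 regions of lowest mean rank had them at most 2 bp apart.

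**Figure D5:**
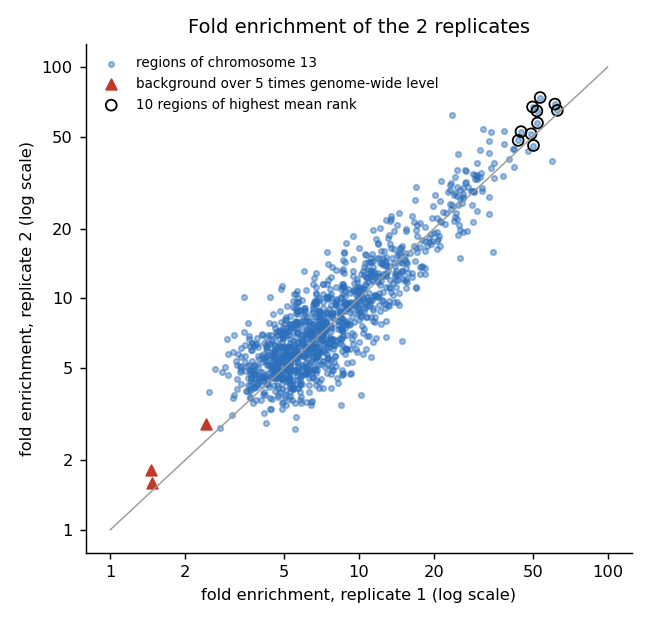
Fold enrichment in replicate 1 (x axis) and replicate 2 (y axis), log scales, for each region of chromosome 13; the line marks equal values. The 10 regions of highest mean rank (black circles) are at the upper end of both axes, and the 3 regions with a high background (red triangles) are at the lower end.

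These 10 regions lay from 51.6% to 98.1% of the chromosome's length, where 26.3% of all its 1163 regions lay before the middle. The highest, from 23668336 to 23669237, had pileups of 300 and 267 fragments over backgrounds of 3.91 and 2.87. The second, from 31638689 to 31639605, had the highest pileups of the chromosome in both lists, 357 and 304. The third, from 45015719 to 45016752, had folds of 53.6 and 73.9, the latter being the chromosome's highest in replicate 2. The fourth, from 31605582 to 31606267, had pileups of 256 and 241 and a replicate 2 fold of 64.6. The fifth ran from 38877431 to 38878376 (49.9 and 67.3) and the sixth from 33664045 to 33665082 (52.2 and 57.3).

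The remaining 4 had folds between 43.7 and 52.6. They lay from 43760894 to 43762084 (49.2 in replicate 1 and 51.4 in replicate 2), from 31472219 to 31472937 (44.8 and 52.6), from 39465364 to 39466260 (50.3 and 45.8) and from 39189819 to 39190684 (43.7 and 48.2). Replicate 1 had the higher pileup in all 10. Replicate 2 had the lower background in all 10 and the higher fold in 9 of them. The exception began at 39465364. Over all 1163 regions replicate 2 had the higher fold in 676, and its genome-wide background was the lower (2.74 against 3.91 fragments).

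Of these 10, 3 lay together in 167 kb, from 31472219 to 31639605. That interval held 8 shared regions, 4 of them with a fold of at least 20 in both lists. The interval and the members first named here were picked after their values were seen. Besides the 3 already named, the fourth lay from 31497056 to 31497993, with folds of 47.9 and 43.3 and pileups of 248 and 220 fragments. The region from 31604644 to 31605221 had its summit under 1 kb from that of the region ranked 4 and had folds of 13.5 and 22.7. Its pileup was higher in replicate 2 (84) than in replicate 1 (68), against the general offset. The other 3 members of the interval had folds of 4.69 to 11.8 in replicate 1 and of 5.37 to 11.6 in replicate 2, so strong and weak regions stood side by side. Over the chromosome, 65.2% of regions with a fold of at least 20 in both lists had another such region within 200 kb; elsewhere this was 52.3% ± 9.44 (SD, n = 19), with 3 chromosomes higher than chromosome 13. For a fold of at least 10 the share was 95.7%, above the 19 others (87.8% ± 3.44, SD, n = 19, at most 92.7%). The density of regions with that fold was also the highest, 6.04 per Mb against at most 5.55 elsewhere. The median distance between them, 96.6 kb, was inside the range of the others (66.1 to 124 kb).

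The widest regions were not all among the strongest, although width and mean fold rank went together over the 1163 regions (Spearman rho 0.647). In order of width, the 5 widest ranked 331, 202, 18, 34 and 156 by mean fold rank, counted from the highest. The widest, from 45448562 to 45450174, spanned 1613 bp with folds of 9.24 and 10.5; it held 1 peak of replicate 1 and 2 of replicate 2, and the summits used were 875 bp apart. The second, from 36973973 to 36975563 (1591 bp), had a replicate 2 fold of 13.2 and pileups of 63 and 50. The third, from 38121891 to 38123401 (1511 bp), was much stronger, with folds of 31.5 and 54.2 and pileups of 216 and 202. It was followed by the regions from 30000931 to 30002331 (1401 bp, folds of 29.9 and 33.4) and from 34055946 to 34057345 (1400 bp, 15.5 and 14.4). A width over 1000 bp was found for 28 regions, or 2.41%, against 2.38% ± 0.568 (SD, n = 19) on the others. More than 1 peak of a list was joined in 12 regions. The other chromosomes, with at most 1000 regions each, had 9.16 ± 4.13 (SD, n = 19) such regions and at most 17.

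The high-background regions of the chromosome numbered 3, of 34 in the whole series, counting a local background over 5 times the genome-wide level in either list. Besides the region at 7358809, one lay from 16858799 to 16859413, with pileups of 327 and 255 fragments over backgrounds of 222 and 160 and folds of 1.47 and 1.59. In the first the background was 49.1 and 48.2 times the genome-wide level of its list, and in the second 56.9 and 58.2 times. The third, from 45873399 to 45873632, was 234 bp wide, had folds of 2.43 and 2.85 over backgrounds of 32.3 and 22.2 fragments, and contained the last base of any peak on the chromosome. These 3 had the lowest mean fold ranks of the 1163 regions. Fold divides by the background by which they were picked, so low ranks follow in part from the choice. Summits of the replicates were at most 2 bp apart in each.

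Peaks without a partner were weak. Replicate 1 had 388 of them on chromosome 13, at a median fold of 4.30 where its partnered peaks had 6.93, and at a median of 23 fragments where those had 39. Replicate 2 had 167, at 4.81 and 19 fragments where its partnered peaks had 7.27 and 31. Every peak that reached a fold of 10, 329 in replicate 1 and 350 in replicate 2, had a partner. Among the 20% of the chromosome's peaks with the lowest fold, 40.1% in replicate 1 and 68.3% in replicate 2 did. No such share over the whole lists is given here. In the whole lists, peaks without a partner had median folds of 4.28 and 4.72 and folds of at most 9.05 and 9.61. The weakness of unmatched peaks was thus not particular to chromosome 13.

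The unmatched replicate 1 peaks with the highest folds lay from 42498609 to 42499070 (8.36), from 32176252 to 32176556 (7.95) and from 30471408 to 30471743 (7.75). In replicate 2 they lay from 40401067 to 40401445 (fold 9.18, 37 fragments), from 14804649 to 14804952 (7.21, 26 fragments) and from 25857773 to 25858025 (6.94, 25 fragments). Each was above the median fold of its list, so the lack of a partner was not limited to the lowest folds.

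The 3 shared regions with the smallest overlap and the 3 nearest unmatched pairs had folds in overlapping ranges. These are few examples, and none lay at the limit of 1 bp. The regions with the smallest overlap of the lists shared 87 bp (from 42033553 to 42034020, folds of 5.43 and 4.11), 120 bp (from 23635419 to 23635742, 3.35 and 5.07) and 127 bp (from 40674354 to 40674803, 5.30 and 4.54). The nearest unmatched peaks of the 2 lists were 72 bp apart, at 42432754 to 42433011 in replicate 1 (fold 5.71) and 42433084 to 42433341 in replicate 2 (4.39). The next pairs were 126 bp apart (3.55 and 4.31) and 245 bp apart (4.83 and 6.01).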

How the data were processed

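Per the submitters' processing notes, alignment used Bowtie 0.12.7 and peak calling MACS2. Its version and settings, and the genome build, were not given in the sources used here. Each of the 2 deposited narrowPeak lists gives per peak a fold enrichment (a ratio), −log10 p and −log10 q values and a score (not used), all from the authors' peak caller. These are the authors' own values, with no SD or n. Coordinates are those of the lists, counted from 1.

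Summit pileup and local background were recovered by solving fold and Poisson p together; pileups were whole within 0.01 for 100% of peaks. The lowest background of each list, 3.91 and 2.74 fragments, was taken as its genome-wide level. Read totals are unknown. On simulated data 2000 of 2000 pileups were recovered. Overlapping peaks of both lists were joined on all chromosomes together. The peak of highest fold gave a region's values, and its position was midway between the replicate summits. Named regions follow a written rule: the 10 highest mean ranks, the 5 widest, chains of at least 5, and the extremes of bins, empty stretches, unmatched peaks, backgrounds and overlap; others are said to be picked after their values were seen. Members, lists and measures were chosen with earlier results of these data known. Comparisons are descriptions with no test. Python 3.11.15, numpy 2.4.6, scipy 1.17.1 and pandas 2.3.3 were used.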

Additional observations from a re-analysis of the deposited data

How the results depend on the processing

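Of 79 alternatives, 54 stayed within the SD between the lists, 1.5 times a count, the Wilson 95% interval of a share or, for rho, the SD over the other chromosomes. The alternatives for the centre of the sparsest window and for dense bins were chosen after the data were seen. Density, the number of regions, the number of dense bins (21 to 31), the outer share and the sparsest centre kept their places as highest or lowest of the 20 chromosomes under every alternative run. With a −log10 q of at least 10 the outer share was 31.3%, the median width 500 bp, the median distance 29.9 kb, the share with a neighbour within 2 kb 11.1%, the median folds 8.74 and 9.35, and the share with a fold of at least 10 in both lists 34.4%, as weaker peaks were removed; the replicate 1 fold then ranked 18 of 20 chromosomes from the highest (9 before) and that share 18 (14 before). Summits at most 100 bp apart gave an outer share of 31.8% and a median distance of 21.9 kb. The outer 10% held 16.7% and the outer 30% held 55.1%. A neighbour was found within 1 kb for 5.59% and within 5 kb for 36.3%. Windows of 10% and 30% of the length put the sparsest centre at 13.5% and 15.4%. Leaving out a replicate gave outer shares of 33.3% to 33.9%, median widths of 363.5 to 378 bp, median distances of 13.4 to 16.7 kb, neighbour shares of 20.2% to 23.1% and sparsest centres of 11.96% to 12.8%. Over all peaks of the chromosome the median fold was 5.86 in replicate 1 and 6.68 in replicate 2; single lists hold unjoined and unmatched peaks. Not run was the motif window alternative, which needs a genome of the build. No paired analysis was possible because both lists hold ChIP peaks, and input enters only as the background of called peaks.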
